A study of Mus musculus with 10 samples.

Results

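The genes described here belong to BMP and TGF-beta signalling, and they were measured by RNA sequencing in mouse prostate orthografts. The set is a list of 17 ligands, 12 receptors and co-receptors, 8 Smads, 4 Id genes, 7 antagonists and 2 latent TGF-beta binding proteins, drawn up by name and matched to the count files through Ensembl gene IDs. These 50 genes are among 47069 gene IDs counted in each tumour, and all 50 were found. After the filter on low counts 49 of them could be tested. The exception was Gdf5, which encodes a joint-forming BMP-type ligand and reached at most 0.648 CPM in any tumour.

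Each of the 10 tumours grew from cultured cells placed in an anterior prostate lobe of a male CD-1 Nude mouse, a strain that lacks a normal thymus. For 3 of them the cells were the line P1, made from the prostate tumour that a mouse aged 14 months carried. The other tumours grew from CP1 (3 tumours, donor aged 6 months) or CP2 (4 tumours, donor aged 8 months), lines whose donors carried the prostate deletion Ctnnb1pc(ex3)Δ/+, which stabilises beta-catenin. Each group is thus 1 line from a donor tumour, expanded in culture, and the effects of line, genotype and the age of the donor cannot be told apart. The host contributes its own stroma, vessels and innate immune cells to every library. Nothing in the labels says that each library came from its own animal, so p-values rest on a spread between samples that may partly be technical. The labels of CP2 replicate 1 conflict, with CP1 in the title and CP2 in the tissue and source fields, and it was analysed as CP2.

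BMPs, growth and differentiation factors, activins and TGF-betas are secreted dimers that bring together a type I and a type II receptor kinase. BMP-type receptors pass the signal mainly to Smad1, Smad5 and Smad9, activin and TGF-beta receptors mainly to Smad2 and Smad3, and both branches share Smad4. The Id genes are classic early targets of BMP signalling, and secreted antagonists such as noggin, gremlin and follistatin bind ligands before they reach a receptor. In the prostate, stromal TGF-beta is known for restraining epithelial growth, and BMP4 and BMP7 for limiting ductal branching.

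In depth the libraries ranged from 28050484 to 37180721 counts in P1, from 25081535 to 30546426 in CP1 and from 18800912 to 20638085 in CP2, and 3 counts in a library correspond to at most 0.160 CPM. Ctnnb1 itself was lower in both CP lines, at log2 -0.81 ± 0.12 and -0.90 ± 0.11, although gene counts do not show the deleted exon. P1 tumours held transcripts of seminal vesicle and secretory prostate, summing to 171897, 69934 and 20538 CPM in replicates 1 to 3. CP1 replicates 2 and 3 held the most urothelial transcripts, with a marker sum of 1370 and 560 CPM against 61.4 CPM in CP1 replicate 1. That sum was 182 to 388 CPM in P1, above CP1 replicate 1, and 2.75 to 11.5 CPM in CP2. Of 9 prostate epithelium markers 5 were lower and 1 higher in CP1 than in P1, and 6 lower and 1 higher in CP2. Those are 66.7% and 77.8% called, beside 44.8% and 56.7% of all genes tested. Epcam averaged 1103 CPM in P1, 21.7 in CP1 and 13.4 in CP2, Krt8, Krt18, Krt19 and Cdh1 were likewise called lower in both, and the prostate regulator Hoxb13 was at 50.1, 56.7 and 50.3 CPM.

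The BMP and TGF-beta genes differed between all 3 lines, in both directions. In CP1 against P1, 18 of the 49 testable genes had higher values and 12 lower ones at an adjusted p below 0.05, which is 61.2% called, beside 44.8% of all 17644 genes tested. CP2 against P1 had 21 higher and 10 lower, or 63.3%, beside 56.7% of all genes. CP2 against CP1 had 16 higher and 11 lower, or 55.1%, beside 43.2% of all genes. The called share of the set was thus the higher in each comparison, and no test of that difference was made. Values of the compared lines did not overlap for 30, 31 and 28 genes of the set in these comparisons, beside 50.8%, 60.1% and 52.3% of all genes tested. The sizes differed more: the median absolute log2 fold change of the set was 0.77, 0.96 and 0.82 in the 3 comparisons, beside 0.49, 0.59 and 0.46 over all genes. The median signed change was -0.01, 0.45 and 0.16, beside -0.01, 0.00 and -0.01. Both CP lines are set against the same P1 tumours, so their 2 lists of calls are not independent.

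**Figure D1:**
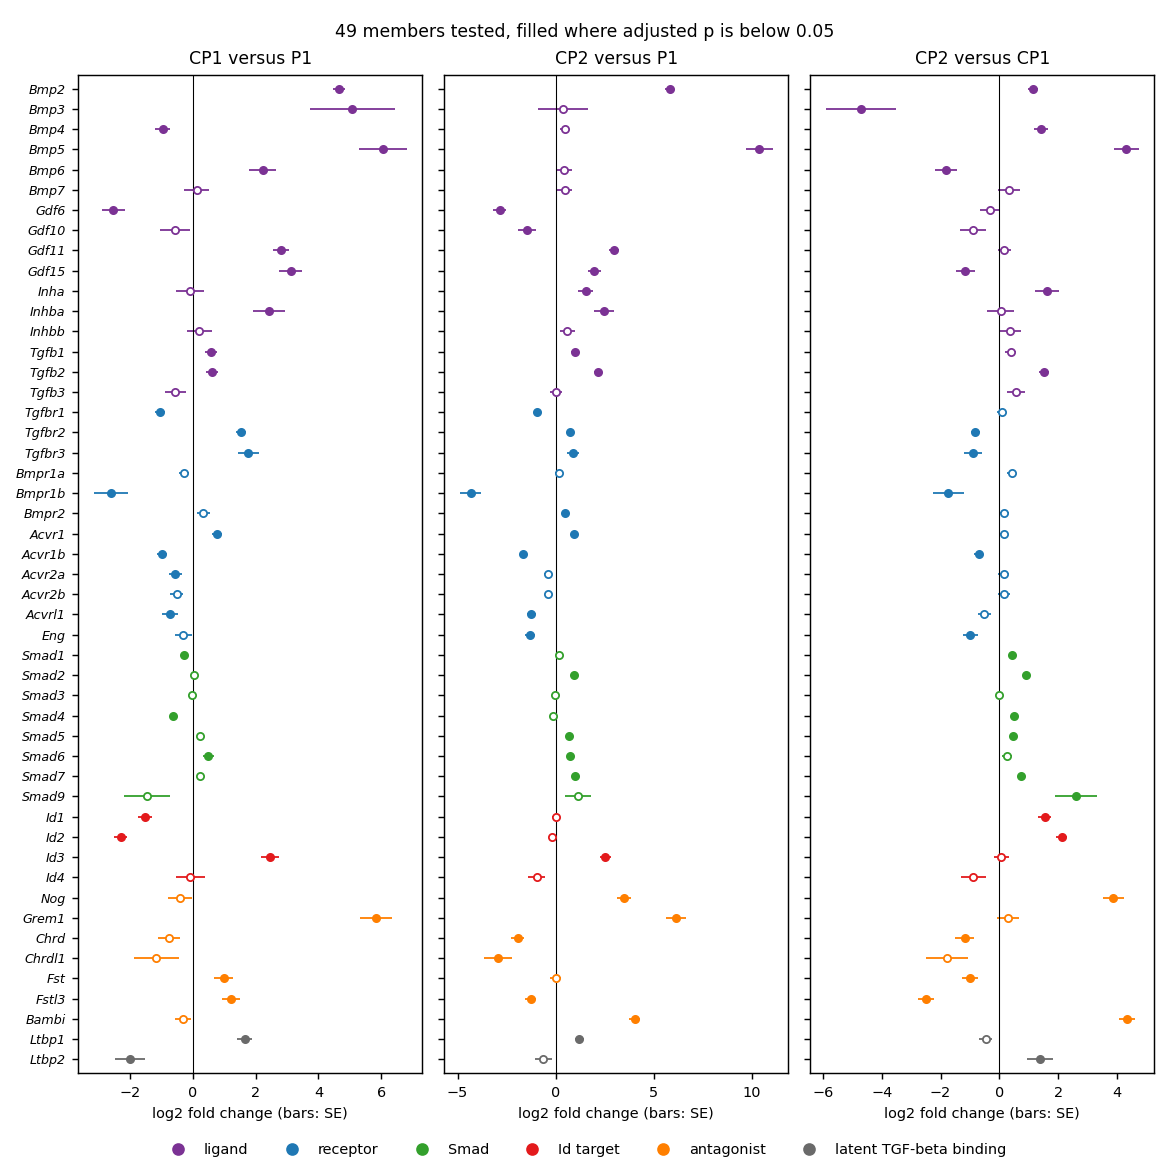
Log2 fold change (x axis, bars show SE) of the 49 genes tested (y axis) in CP1 versus P1, CP2 versus P1 and CP2 versus CP1, coloured by role and filled where the adjusted p was below 0.05. Bmp2, Bmp5 and Grem1 lie far to the right in both comparisons with P1, Nog and Bambi lie to the right in CP2 alone of the 2 CP lines, and the values of Bmp5 against P1 are fitted ones that depend on the prior count.

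By role the calls fell unevenly. Of 16 ligands that could be tested, 9 were higher and 2 lower in CP1 against P1, beside 22.4% of all genes in each direction, and 8 were higher and 2 lower in CP2 against P1, beside 28.2% and 28.4%. Receptors were divided: 3 of 12 were higher and 5 lower in CP1, and 4 higher and 5 lower in CP2. In CP2 against CP1, 0 of 12 receptors were higher and 5 lower, while 6 of 8 Smads were higher and 0 lower, beside 21.3% and 21.9% of all genes. Antagonists split evenly in CP2 against P1, with 3 higher and 3 lower of 7.

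Upstream sequence was read for genes that carry these contrasts. Grem1 and Bmp5 were far higher in both CP lines than in P1, whereas Bmp4 and Id2 were lower in CP1 than in either other line. The RefSeq promoter table (build GRCm38.p6) held 34 of the 50 genes. Shown are the bases before the annotated start, 5′ to 3′ on the gene's strand and clipped where GENCODE marks an exon, with the letters GGCGCC, a GC-rich sequence known to be bound by BMP-branch Smads, in capitals. Grem1 is chr2:113758649-113758898 on the minus strand, Bmp5 is chr9:75775115-75775363 on the plus strand, Bmp4 is chr14:46390670-46390919 on the minus strand and Id2 is chr12:25096254-25096342 on the minus strand.
Grem1: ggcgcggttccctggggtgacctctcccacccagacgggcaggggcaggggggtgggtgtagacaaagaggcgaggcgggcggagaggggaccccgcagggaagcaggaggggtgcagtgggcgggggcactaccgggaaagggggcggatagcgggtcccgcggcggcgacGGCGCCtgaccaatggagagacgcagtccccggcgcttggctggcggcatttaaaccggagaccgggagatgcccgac
Bmp5: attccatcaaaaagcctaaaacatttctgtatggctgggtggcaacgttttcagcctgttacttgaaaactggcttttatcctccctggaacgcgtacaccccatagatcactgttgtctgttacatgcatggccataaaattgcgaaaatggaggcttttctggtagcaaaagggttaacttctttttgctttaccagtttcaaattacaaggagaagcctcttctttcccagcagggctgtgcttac
Bmp4: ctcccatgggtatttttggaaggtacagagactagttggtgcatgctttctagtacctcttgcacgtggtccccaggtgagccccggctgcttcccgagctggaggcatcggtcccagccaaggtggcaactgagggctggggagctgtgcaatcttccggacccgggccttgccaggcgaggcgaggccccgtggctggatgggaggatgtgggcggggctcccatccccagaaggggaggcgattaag
Id2: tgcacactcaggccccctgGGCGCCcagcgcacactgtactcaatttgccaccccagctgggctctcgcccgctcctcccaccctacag

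GGCGCC begins 78 bases before the start of Grem1 and 231 bases before that of Id2, and these genes moved in opposite directions in CP1. In the 250 bases before the first start the table lists for a gene it was found for 8 of the 34 genes (Bmpr1a, Bmpr2, Chrd, Grem1, Id2, Id4, Smad9 and Tgfbr1), or 23.5%, beside 9.54% of 27025 RefSeq genes. With any listed start counted, Smad5 was added, which made 26.5% beside 10.8%. The promoters of the set had a median of 67.4% G and C, beside 52.0%, and what part base composition has in these shares was not tested. The short Smad site CAGAC, read on both strands as CAGAC or GTCTG, was found at the first start for 16 of 34 (47.1%), beside 42.1% of all genes, and at any start for 18 (52.9%), beside 45.8%. The palindrome GTCTAGAC, which shares no match with CAGAC, and the TCF/LEF core ATCAAAG, searched on both strands, were found for 0 of 34 at any start, beside 0.200% and 3.72% of all genes. These are matches of letters in a short window and not measured binding sites.

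Among the ligands Bmp2, a BMP best known for bone induction and here the most abundant BMP of both CP lines, stood apart. It was measured at 11.4, 6.71 and 7.52 CPM in the P1 tumours, 200, 209 and 237 CPM in the CP1 tumours, and 497, 483, 469 and 443 CPM in the CP2 tumours. No value of 1 line overlapped another line. The log2 fold change was 4.66 ± 0.20 in CP1 (adjusted p = 4.13e-07) and 5.79 ± 0.21 in CP2 (adjusted p = 1.34e-07), and CP2 exceeded CP1 by 1.14 ± 0.16 (adjusted p = 0.000449). These are levels in bulk tumour RNA, in which fewer cells of a type and less RNA per cell cannot be told apart.

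Bmp5, a close relative of Bmp7, was all but missing from P1, at 0, 0.0312 and 0.0365 CPM, or 2 counts over the 3 libraries. CP1 tumours held 0.671, 2.92 and 1.70 CPM, and CP2 tumours 32.8, 42.7, 34.6 and 31.2 CPM. The steps are large and do not overlap: summed counts were 82.8 times those of P1 in CP1 (95% exact interval 22.5 to 690) and 1621 times in CP2 (448 to 13390), intervals that cover counting error only. CP2 exceeded CP1 by log2 4.31 ± 0.42 (adjusted p = 5.10e-05), and by 4.90 without CP1 replicate 2.

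Bmp4, a ligand of prostate mesenchyme, took the reverse course in CP1. Its values were 21.2, 13.2 and 20.6 CPM in P1, 6.78, 9.97 and 11.6 CPM in CP1 and 19.3, 28.3, 27.2 and 25.6 CPM in CP2. CP1 was lower than P1 by -0.96 ± 0.24 on the log2 scale (adjusted p = 0.00933) and CP2 higher than CP1 by 1.41 ± 0.23 (adjusted p = 0.00106), while CP2 and P1 overlapped and differed by 0.45 ± 0.23 (adjusted p = 0.112).

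The make-up of the BMP ligand transcripts thus differed between lines. Per kilobase of merged exon, Bmp2 to Bmp7 summed to 14.7 ± 2.52 CPM in P1, 73.5 ± 9.65 CPM in CP1 and 159 ± 6.93 CPM in CP2 (SD, n = 3, 3 and 4). In P1, Bmp4 made up 55.0% ± 6.57 of that sum, Bmp7 26.3% ± 4.55 and Bmp2 16.1% ± 2.24. Bmp2 made up 82.9% ± 7.14 in CP1 and 83.9% ± 1.55 in CP2, and Bmp4 5.65% ± 0.793 and 7.05% ± 1.17. The order of the leading ligand in each line was the same with the length of the longest transcript.

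**Figure D2:**
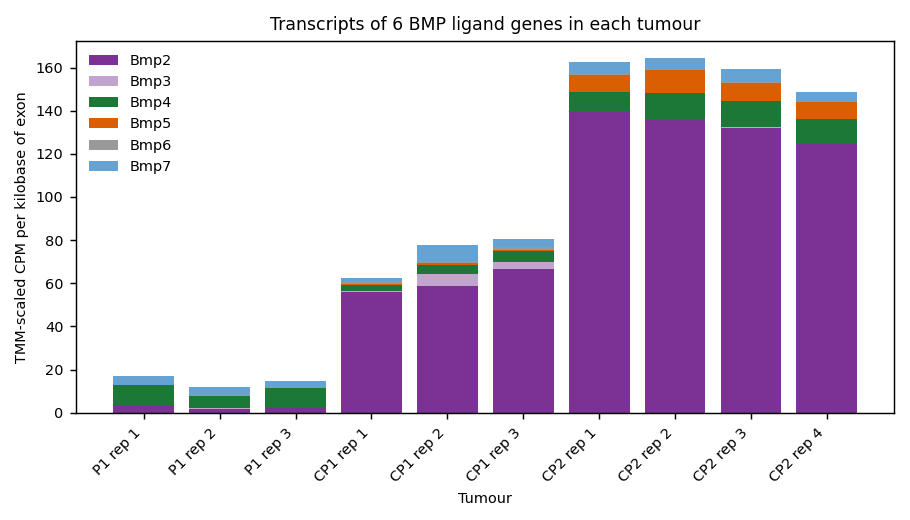
TMM-scaled CPM per kilobase of merged exon (y axis) of Bmp2, Bmp3, Bmp4, Bmp5, Bmp6 and Bmp7, stacked for each of the 10 tumours (x axis). The stack reaches 12.1 to 17.2 in P1, 62.5 to 80.3 in CP1 and 149 to 164 in CP2, and Bmp2 fills most of it in every CP tumour.

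Bmp3, an atypical member that antagonises other BMPs, and Bmp6, which is known for iron regulation, were highest in CP1. Bmp3 read 0.339, 1.28 and 0.256 CPM in P1, 1.55, 40.3 and 22.7 CPM in CP1 and 0.0465 to 2.28 CPM in CP2. Its high values were those of CP1 replicates 2 and 3, the tumours with the higher urothelial marker sums. The log2 difference from P1, 5.08 ± 1.35 (adjusted p = 0.0116), was 1.30 (adjusted p = 0.549) with those tumours left out, and that between CP2 and CP1 went from -4.71 ± 1.19 (adjusted p = 0.0100) to -0.93 (adjusted p = 0.678). What part urothelial cells have in these values was not tested. Leaving out single tumours moved the call less, from 4.26 without CP1 replicate 2 to 6.13 without P1 replicate 2, and in CP2 against CP1 from -3.88 without CP1 replicate 2 to -6.07 without CP2 replicate 3. Bmp6 ranged over 0.438 to 1.40 CPM in P1, 3.70 to 6.08 CPM in CP1 and 0.958 to 2.05 CPM in CP2, with differences of 2.22 ± 0.43 for CP1 against P1 and -1.82 ± 0.39 for CP2 against CP1. Txndc5 overlaps exons of Bmp6 on the other strand, and the use of strand in counting is not stated.

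Bmp7, which acts in prostate branching, was called in no comparison. It read 16.8, 15.3 and 13.7 CPM in P1, 6.89, 29.6 and 13.6 CPM in CP1 and 22.0, 19.9, 24.3 and 17.7 CPM in CP2. The spread within CP1 again put replicate 2 highest and replicate 1 lowest: with replicates 2 and 3 left out the change against P1 turned from 0.13 to -1.15 (adjusted p = 0.00684), and without replicate 2 alone CP2 exceeded CP1 by 1.04 (adjusted p = 0.0145). CP2 was called above P1 with only the compared lines in the fit (0.44, adjusted p = 0.0242) and with CP1 replicates 2 and 3 left out (0.46, adjusted p = 0.0253).

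Of the growth and differentiation factors, Gdf11 and Gdf15 were higher in both CP lines and Gdf6 lower. Gdf11, an activin-like ligand of axial patterning, read 12.5, 6.67 and 6.61 CPM in P1, 73.7, 49.5 and 57.9 CPM in CP1 and 60.7, 75.5, 69.4 and 64.2 CPM in CP2. The rises were 2.81 ± 0.26 and 2.97 ± 0.25 (adjusted p = 1.96e-05 and 8.04e-06), and the CP lines overlapped.

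Gdf15, a stress-responsive cytokine that signals to the brainstem, was highest in CP1. It read 2.90, 3.56 and 6.17 CPM in P1, 28.1, 31.6 and 50.1 CPM in CP1 and 14.9, 22.5, 10.8 and 17.5 CPM in CP2. All 3 comparisons were called, at 3.12 ± 0.37, 1.97 ± 0.34 and, for CP2 against CP1, -1.16 ± 0.31 (adjusted p = 9.58e-05, 0.000813 and 0.0141). The last call was lost without CP1 replicate 3, at -0.87 (adjusted p = 0.0665).

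Gdf6, a BMP-type ligand of joint and eye development, read 11, 7.11 and 9.71 CPM in P1 and stayed at or below 2.07 CPM in every CP tumour. The falls were -2.53 ± 0.37 in CP1 and -2.85 ± 0.34 in CP2 (adjusted p = 0.000341 and 6.91e-05). Gdf10, or BMP3b, averaged 11.2 ± 4.83 CPM in P1, 7.59 ± 4.12 in CP1 and 4.05 ± 0.955 in CP2, and was called lower in CP2 alone of the comparisons with P1 (-1.47 ± 0.45, adjusted p = 0.0179). That call was lost without P1 replicate 1 or CP2 replicate 2 (adjusted p = 0.0631 and 0.0503), and without CP1 replicate 3 a fall from CP1 to CP2 was called, at -1.30 (adjusted p = 0.0207).

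The activin and inhibin subunits parted. Inhba, the subunit of activin A, read 27.4, 13.0 and 3.69 CPM in P1, 73.9, 71.4 and 91.9 CPM in CP1 and 83.3, 70.5, 80.3 and 92.3 CPM in CP2. Every CP tumour lay above every P1 tumour, by 2.42 ± 0.52 and 2.47 ± 0.50 on the log2 scale (adjusted p = 0.00370 and 0.00211). The P1 values fell in the order of the seminal vesicle sums of those tumours, and without P1 replicate 1 the differences were 3.22 and 3.27.

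Inhbb, the subunit of activin B, was called in no comparison, at 64.2 ± 30.3, 74.1 ± 34.9 and 95.9 ± 25.8 CPM in P1, CP1 and CP2. Without P1 replicate 1, at 99.0 CPM the highest of its line, CP2 exceeded P1 by 1.02 (adjusted p = 0.0472). Inha, whose product forms inhibins that oppose activins, stayed under 2.27 CPM in all tumours and was higher in CP2 than in P1 (1.51 ± 0.41, adjusted p = 0.00951) and CP1 (1.61 ± 0.41, adjusted p = 0.0107).

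All 3 TGF-beta ligands were expressed in every tumour, and Tgfb2 differed most. Tgfb2 read 53.1, 31.7 and 32.0 CPM in P1, 61.6, 63.2 and 53.8 CPM in CP1 and 188, 162, 166 and 166 CPM in CP2. The CP2 tumours were clear of both other lines, by 2.13 ± 0.18 against P1 (adjusted p = 8.93e-06) and 1.52 ± 0.18 against CP1 (adjusted p = 0.000138), while the rise in CP1 was 0.61 ± 0.18 (adjusted p = 0.0207) and its lowest tumour lay just above the highest of P1. That smaller call was lost when P1 replicate 2 or 3 or CP1 replicate 1 or 2 was left out (adjusted p = 0.0545 to 0.0816).

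Tgfb1, the broadly expressed isoform, read 102, 69.2 and 110 CPM in P1, 175, 110 and 134 CPM in CP1 and 180, 198, 176 and 177 CPM in CP2. CP2 was higher than P1 by 0.96 ± 0.19 (adjusted p = 0.00150). The CP1 rise of 0.57 ± 0.19 (adjusted p = 0.0351) was lost without P1 replicate 1 or 2, CP1 replicate 1 or 3 or CP2 replicate 3 (adjusted p = 0.0501 to 0.142), and without CP1 replicate 1 CP2 exceeded CP1 by 0.58 (adjusted p = 0.0318). Tgfb3 averaged 99.4 ± 42.7, 67.5 ± 29.7 and 99.4 ± 4.23 CPM and was not called, with P1 replicate 1 at 149 CPM and its fellows at 74.1 and 75.5 CPM. Without CP1 replicate 1 it was called lower in CP1 than in P1 (-0.97, adjusted p = 0.0266) and higher in CP2 than in CP1 (0.96, adjusted p = 0.0263).

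Per kilobase the 3 isoforms summed to 54.7 ± 16.7 CPM in P1, 57.9 ± 14.8 in CP1 and 95.1 ± 2.14 in CP2 (SD). Tgfb2 supplied 12.3% ± 1.11 of that sum in P1, 18.3% ± 3.77 in CP1 and 31% ± 1.57 in CP2. Tgfb3 led in P1 with 52.7% ± 7.55 by merged exons, but Tgfb1 led there with 50.4% ± 9.01 by the longest transcript, so which of these isoforms leads in P1 depends on the length used.

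**Figure D3:**
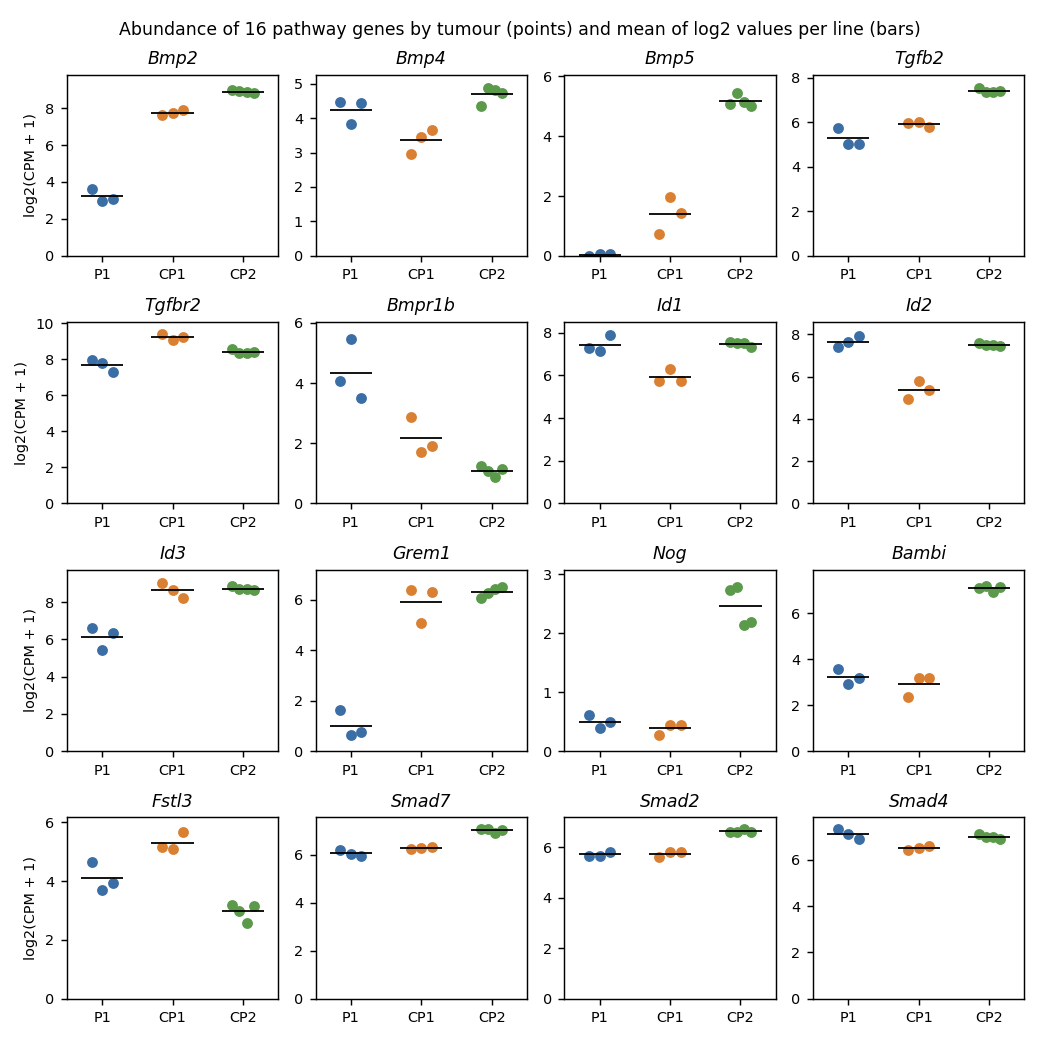
Abundance as log2(CPM + 1) (y axes, which differ between panels and start at 0) of 16 ligands, receptors, Smads, Id genes and antagonists in each tumour (points) of P1, CP1 and CP2 (x axes), with the mean of the log2 values as a bar. Bmp2, Bmp5, Id3 and Grem1 step up from P1 to both CP lines, Id1, Id2 and Bmp4 dip in CP1, and Nog and Bambi are high in CP2.

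The TGF-beta receptors moved against each other. Tgfbr2, the type II kinase that binds TGF-beta first, read 246, 221 and 153 CPM in P1, 665, 537 and 592 CPM in CP1 and 373, 323, 329 and 332 CPM in CP2. The 3 lines did not overlap, with differences of 1.53 ± 0.17, 0.72 ± 0.16 and, for CP2 against CP1, -0.82 ± 0.15 (adjusted p = 5.88e-05, 0.00303 and 0.00196). Tgfbr1, the type I kinase it activates, read 269, 215 and 173 CPM in P1, 118, 113 and 87.5 CPM in CP1 and 113, 105, 111 and 118 CPM in CP2. It was lower in both CP lines, by -1.05 ± 0.16 and -0.97 ± 0.15 (adjusted p = 0.000524 and 0.000363), and CP1 and CP2 overlapped.

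Tgfbr3, or betaglycan, presents ligand to Tgfbr2. It read 26.3, 26.2 and 19.5 CPM in P1, 46.5, 122 and 75.9 CPM in CP1 and 59.1, 41.6, 43.3 and 30.7 CPM in CP2, so every CP tumour was above every P1 tumour. The rise was 1.76 ± 0.34 in CP1 (adjusted p = 0.00185) and 0.86 ± 0.31 in CP2 (adjusted p = 0.0383), and CP2 was below CP1 by -0.90 ± 0.30 (adjusted p = 0.0359). With CP1 replicates 2 and 3 left out the CP1 rise was 0.96 and the difference between the CP lines -0.09 (adjusted p = 0.862). The call in CP2 was also lost without any 1 of the P1 tumours or CP2 replicates 1, 2 or 3 (adjusted p = 0.0612 to 0.129), and that between the CP lines without CP1 replicate 2 or 3 or CP2 replicate 2, 3 or 4 (adjusted p = 0.0643 to 0.186).

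Eng and Acvrl1 encode endoglin and ALK1, the co-receptor and type I receptor of endothelial BMP9 signalling. Eng read 142, 70.1 and 81.5 CPM in P1, 79.9, 79.9 and 77.2 CPM in CP1 and 30.7, 36.0, 36.0 and 56.1 CPM in CP2. CP2 lay below both other lines without overlap, by -1.30 ± 0.25 against P1 and -0.99 ± 0.25 against CP1 (adjusted p = 0.00162 and 0.0108). Acvrl1 averaged 29.8 ± 7.44 CPM in P1, 17.9 ± 0.662 in CP1 and 12.6 ± 3.98 in CP2, lower by -0.73 ± 0.25 (adjusted p = 0.0343) and -1.24 ± 0.23 (adjusted p = 0.00114).

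Endothelial markers moved beside them in part: 5 of 11 (Kdr, Tek, Emcn, Esam and Egfl7) were lower and Flt1 higher in CP2 than in P1. That is 54.5% called, beside 56.7% of all genes. In CP1 against P1, where Acvrl1 was lower, 0 of these markers were lower and 1 was higher. The summed level of the 11 markers was 238 to 426 CPM in P1, 379 to 478 in CP1 and 347 to 422 in CP2. Flt1, at 30.3, 172 and 200.4 CPM on average, made up much of the CP sums: without it the sum was 219 to 381 CPM in P1, 241 to 304 in CP1 and 152 to 249 in CP2. Pecam1, at 60.3, 53.7 and 53.5 CPM on average, was not called. What part the number of vessels has in the Eng and Acvrl1 values was not tested. The Acvrl1 call in CP1 was lost without P1 replicate 1 or 2 or any 1 of the CP1 tumours (adjusted p = 0.0548 to 0.110), and without CP2 replicate 4 CP2 was called below CP1 (-0.76, adjusted p = 0.00941). Eng and Acvrl1 both share exonic bases with a gene on the other strand, Fpgs and Gm16031.

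Among BMP receptors Bmpr1b fell furthest. This type I receptor read 15.9, 42.8 and 10.3 CPM in P1, 6.32, 2.24 and 2.80 CPM in CP1 and 1.39, 1.13, 0.821 and 1.21 CPM in CP2. The lines followed each other downward without overlap, by -2.60 ± 0.55 and -4.34 ± 0.55 against P1 (adjusted p = 0.00341 and 0.000102) and -1.73 ± 0.53 from CP1 to CP2 (adjusted p = 0.0243). Single tumours carried much of it: without P1 replicate 2 the changes against P1 were -1.81 and -3.54, without CP1 replicate 1 CP1 was at -3.20 against P1, and the CP2 against CP1 call was lost without CP1 replicate 1 or CP2 replicate 2, 3 or 4 (adjusted p = 0.0511 to 0.118).

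The other BMP type I receptors were steadier. Bmpr1a averaged 124 ± 31, 102 ± 9.53 and 137 ± 10.8 CPM in the 3 lines and was not called. P1 replicate 3 was its lowest P1 tumour at 90.8 CPM, and without it CP1 was called lower than P1 (-0.47, adjusted p = 0.00969). CP2 was called higher than CP1 without P1 replicate 1 or 3 (0.42, adjusted p = 0.00797 to 0.0282), with DESeq2 (0.41, adjusted p = 0.0427) and with only these lines in the fit (0.41, adjusted p = 0.00741). Acvr1, or ALK2, was higher in both CP lines. It averaged 56.2 ± 11.1, 95.2 ± 16.7 and 106 ± 4.94 CPM in P1, CP1 and CP2, with rises of 0.76 ± 0.16 and 0.91 ± 0.15 (adjusted p = 0.00301 and 0.000561).

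Of the activin receptors, the type I receptor Acvr1b was lower along the series of lines. It read 41.6, 46.7 and 34.2 CPM in P1, 17.0, 25.1 and 19.4 CPM in CP1 and 12.3, 11.6, 13.3 and 13.2 CPM in CP2. The differences were -0.99 ± 0.16, -1.69 ± 0.15 and -0.70 ± 0.15 (adjusted p = 0.000736, 1.19e-05 and 0.00458), with no overlap between any pair of lines. The type II receptors changed less. Acvr2a averaged 23.9 ± 5.56, 16.2 ± 1.88 and 18.0 ± 3.07 CPM, with a call in CP1 (-0.56 ± 0.20, adjusted p = 0.0425) that was lost without P1 replicate 1 or 2, CP1 replicate 1 or 2 or CP2 replicate 2 or 3 (adjusted p = 0.0584 to 0.132), and a call in CP2 that appeared without P1 replicate 3 or CP2 replicate 1 (adjusted p = 0.0118 and 0.0363). Acvr2b stayed under 3.47 CPM in every tumour and was called only without P1 replicate 3, in CP1 (-0.63, adjusted p = 0.0462). Bmpr2, which serves BMPs and activins, averaged 98.6 ± 32.9, 125 ± 6.62 and 139 ± 13.0 CPM. Its call in CP2 (0.49 ± 0.19, adjusted p = 0.0432) was lost when any 1 tumour other than P1 replicate 1 was left out (adjusted p = 0.0520 to 0.150), and without P1 replicate 1 a rise in CP1 was called as well (0.62, adjusted p = 0.00370).

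Smad transcripts moved by less than the ligands did, and mostly upward in CP2. The TGF-beta branch Smads differed from each other: Smad2 read 50.001, 49.994 and 54.9 CPM in P1, 47.6, 55.6 and 55.8 CPM in CP1 and 96.0, 97.7, 104 and 96.2 CPM in CP2. It overlapped between P1 and CP1 (0.04 ± 0.09) and was higher in CP2 by 0.93 ± 0.08 against P1 and 0.90 ± 0.08 against CP1 (adjusted p = 1.19e-05 and 3.82e-05). Smad3 averaged 150 ± 14.2, 148 ± 6.15 and 148 ± 11.4 CPM, with differences of -0.01 ± 0.10, -0.02 ± 0.09 and -0.01 ± 0.09.

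The BMP branch Smads were lowest in CP1 or highest in CP2. Smad1 read 78.9, 74.7 and 72.3 CPM in P1, 61.4, 63.8 and 61.9 CPM in CP1 and 88.3, 78.6, 77.9 and 91.5 CPM in CP2, and its dip in CP1 was small, at -0.27 ± 0.09 against P1 (adjusted p = 0.0259) and 0.43 ± 0.08 from CP1 to CP2 (adjusted p = 0.00209). The first of these calls was lost without P1 replicate 1 or CP1 replicate 1 or 3 (adjusted p = 0.0552 to 0.0713). Smad5 rose from 92.5 ± 7.14 CPM in P1 to 148 ± 12.1 in CP2 (0.68 ± 0.09, adjusted p = 0.000116), with CP1 between at 109 ± 1.62. Smad9 was rare and uneven, at 7.09, 0.717 and 1.31 CPM in P1, 0.601 to 1.69 CPM in CP1 and 5.66 to 7.15 CPM in CP2. CP2 exceeded CP1 by 2.59 ± 0.72 (adjusted p = 0.0158), a call lost without CP1 replicate 1 or 3 (adjusted p = 0.0526 and 0.0533). P1 replicate 1, with the largest seminal vesicle sum, decided its comparison with P1: without it CP2 was higher by 2.70 (adjusted p = 0.000773), and without P1 replicate 2 CP1 was lower by -1.94 (adjusted p = 0.0336).

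Smad4, the shared partner, followed Bmp4, Id1 and Id2 in being lowest in CP1. It read 161, 136 and 118 CPM in P1, 84.4, 90.3 and 95.4 CPM in CP1 and 138, 127, 126 and 117 CPM in CP2. CP1 lay below both lines without overlap, by -0.62 ± 0.12 against P1 (adjusted p = 0.00178), and CP2 was 0.50 ± 0.11 above CP1 (adjusted p = 0.00523).

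The inhibitory Smads, themselves feedback targets, were highest in CP2. Smad7 read 73.8, 64.5 and 61.1 CPM in P1, 74.6, 78.2 and 79.2 CPM in CP1 and 134, 133, 120 and 131 CPM in CP2. The gain in CP2 was 0.96 ± 0.09 against P1 and 0.74 ± 0.08 against CP1 (adjusted p = 1.11e-05 and 0.000116), and without P1 replicate 1 a small gain in CP1 was called too (0.28, adjusted p = 0.0259). Smad6, which acts mainly on the BMP branch, averaged 24.7 ± 5.19, 34.6 ± 5.27 and 41.1 ± 5.27 CPM, higher in CP2 than in P1 by 0.73 ± 0.17 (adjusted p = 0.00374). Its call in CP1 (0.48 ± 0.17, adjusted p = 0.0445) was lost when any 1 of 7 tumours was left out (P1 replicates 2 and 3, CP1 replicates 2 and 3, CP2 replicates 1, 3 and 4, adjusted p = 0.0520 to 0.166).

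The Id genes, taken as readouts of BMP signalling, did not move as a group. Id1 read 154, 138 and 237 CPM in P1, 52.5, 78.2 and 52.4 CPM in CP1 and 189, 179, 181 and 158 CPM in CP2. It was lower in CP1 by -1.53 ± 0.22 (adjusted p = 0.000325), and CP2 and P1 overlapped, with a difference of 0.00 ± 0.20. Id2 showed the same order, at 168, 198 and 245 CPM in P1, 30.1, 54.5 and 40.1 CPM in CP1 and 192, 177, 178 and 172 CPM in CP2. CP1 was lower than P1 by -2.29 ± 0.21 (adjusted p = 1.93e-05) and lower than CP2, which exceeded it by 2.11 ± 0.20 (adjusted p = 4.05e-05).

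Id3 went the other way in CP1, at 95.7, 42.0 and 81.0 CPM in P1, 511, 402 and 295 CPM in CP1 and 458, 413, 409 and 399 CPM in CP2. The rises were 2.47 ± 0.29 and 2.53 ± 0.28 (adjusted p = 9.54e-05 and 4.68e-05), and the CP lines overlapped. CP1 tumours thus held less Id1 and Id2 than P1 but more Id3, beside a Bmp2 level that was above that of P1 in each of them. Id4 was rare, at 5.09 ± 2.08, 4.83 ± 2.62 and 2.61 ± 0.607 CPM, and was not called. Without CP1 replicate 1 it was called lower in CP2 than in P1 (-0.98, adjusted p = 0.0171) and than in CP1 (-1.28, adjusted p = 0.0117). The first of these was also called with CP1 replicates 2 and 3 left out (-0.96, adjusted p = 0.0265) and with only P1 and CP2 in the fit (-0.97, adjusted p = 0.0227).

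Per kilobase, Id transcripts summed to 278 ± 65.7 CPM in P1, 296 ± 60.3 in CP1 and 461 ± 27.9 in CP2 (SD), so that P1 and CP1 overlapped in the sum while its make-up differed. Id1 supplied 54.3% ± 3.52 in P1 and 18.1% ± 4.34 in CP1, and Id3 14.7% ± 5.41 in P1 and 75.5% ± 6.62 in CP1. CP2 lay between, with 33% ± 1.08 from Id1 and 50.8% ± 0.899 from Id3. Over all 50 genes and per kilobase, Id1 was the most abundant in P1 (152 ± 46.0 CPM) and Id3 in both CP lines (225 ± 60.3 and 234 ± 14.5 CPM).

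Antagonists gave some of the largest differences of the whole set. Grem1, gremlin 1, which traps BMP2 and BMP4, read 2.06, 0.561 and 0.694 CPM in P1, 82.7, 32.8 and 77.0 CPM in CP1 and 66, 74.8, 83.7 and 88.3 CPM in CP2. It was higher by 5.84 ± 0.51 and 6.12 ± 0.51 (adjusted p = 1.62e-05 and 7.62e-06), and the CP lines did not differ by the test (0.29 ± 0.37, adjusted p = 0.558). P1 replicate 1 was the highest of its line, and without it the rises were 6.66 and 6.94.

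Fibroblast markers, whose cells are a known source of gremlin, moved beside it in part. Against P1, 5 of 12 were higher and 1 lower in CP1, and 7 were higher and 4 lower in CP2. Those are 50% and 91.7% called, beside 44.8% and 56.7% of all genes. The list summed to 5478 to 10540 CPM in P1, 18258 to 27495 in CP1 and 9236 to 11795 in CP2. In CP2 the sum lay below that of CP1 without overlap, while the Grem1 values of these lines overlapped. What part fibroblasts have in these values was not tested.

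Nog, noggin, read 0.524, 0.312 and 0.402 CPM in P1, 0.212, 0.357 and 0.365 CPM in CP1 and 5.65, 5.84, 3.42 and 3.58 CPM in CP2. Low in P1 and CP1 alike, it was higher in CP2 by 3.47 ± 0.34 and 3.87 ± 0.35 (adjusted p = 1.91e-05 and 3.21e-05). Bambi, a membrane pseudoreceptor that blocks type I receptors and a known target of beta-catenin, read 10.8, 6.52 and 8.07 CPM in P1, 4.10, 8.02 and 8.14 CPM in CP1 and 138, 146, 121 and 140 CPM in CP2. The CP2 tumours exceeded the rest by 4.01 ± 0.27 against P1 and 4.33 ± 0.27 against CP1 (adjusted p = 2.01e-06 and 5.17e-06). CP1 differed from P1 by -0.32 ± 0.25 (adjusted p = 0.331). What part beta-catenin has in the Bambi values was not tested.

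Chordins were lower in CP2. Chrd read 33.5, 23.8 and 21.2 CPM in P1, 9.43, 11.5 and 25.3 CPM in CP1 and 7.87, 7.36, 5.34 and 6.56 CPM in CP2, with -1.95 ± 0.32 against P1 (adjusted p = 0.000601) and -1.18 ± 0.32 against CP1 (adjusted p = 0.0147). CP1 replicate 3 stood with the P1 tumours: without it the fall from P1 to CP1 was called (-1.32, adjusted p = 0.00271) and that from CP1 to CP2 was not (-0.63, adjusted p = 0.0541). Chrdl1 averaged 7.11 ± 5.71, 3.18 ± 0.83 and 0.923 ± 0.918 CPM and was lower in CP2 than in P1 by -2.93 ± 0.72 (adjusted p = 0.00583). That value was -2.11 without P1 replicate 1 and -3.90 without CP2 replicate 3, and a fall from CP1 to CP2 was called without P1 replicate 1 or 3 or CP2 replicate 3 (adjusted p = 0.0112 to 0.0476), with DESeq2 (adjusted p = 0.0278) and with only the CP lines in the fit (adjusted p = 0.0429).

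Follistatins, which bind activins, were highest in CP1. Fstl3 read 24.4, 12.0 and 14.2 CPM in P1, 35.0, 32.8 and 49.6 CPM in CP1 and 8.23, 6.97, 4.93 and 7.82 CPM in CP2. It is the one gene of the set called higher in CP1 and lower in CP2 against P1, at 1.21 ± 0.29 and -1.27 ± 0.27 (adjusted p = 0.00637 and 0.00260), and CP2 lay -2.49 ± 0.27 from CP1 (adjusted p = 9.60e-05). Fst averaged 43.8 ± 16.6, 86.6 ± 15 and 43.5 ± 12.9 CPM, higher in CP1 than in P1 by 0.98 ± 0.30 (adjusted p = 0.0236) and lower in CP2 than in CP1 by -0.996 ± 0.28 (adjusted p = 0.0169). Without CP1 replicate 2 both of these calls were lost (adjusted p = 0.0724 and 0.0617), and the first also without P1 replicate 2 or 3 (adjusted p = 0.0569 and 0.0592).

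Summed per kilobase, the 6 secreted antagonists of the set, which leaves out the membrane protein of Bambi, stood at 22.2 ± 7.96 CPM in P1, 53.5 ± 6.68 in CP1 and 35.1 ± 1.62 in CP2 (SD). Their sum was thus largest in CP1, where Fst supplied 36.2% ± 11, Fstl3 29.8% ± 4.19 and Grem1 28.2% ± 9.90. In CP2 Grem1 supplied 53.9% ± 8.36 and in P1 1.12% ± 0.462. Without the follistatins, whose best known ligands are activins, the sum of Grem1, Nog, Chrd and Chrdl1 was 5.74 ± 2.11 CPM in P1, 18.6 ± 7.07 in CP1 and 22.8 ± 1.67 in CP2. By merged exons that sum was higher in every CP tumour than in any P1 tumour, and the CP lines overlapped. By the longest transcript CP1 replicate 2, at 11.5 CPM, lay just below P1 replicate 1, at 11.7 CPM.

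Of the 2 genes named for latent TGF-beta binding, Ltbp1 encodes a protein that anchors TGF-beta in the matrix. Ltbp1 read 105, 73.5 and 75.1 CPM in P1, 224, 283 and 292 CPM in CP1 and 275, 147, 192 and 161 CPM in CP2. It was higher in both CP lines, by 1.66 ± 0.24 and 1.20 ± 0.23 (adjusted p = 0.000358 and 0.00137), with every CP tumour above every P1 tumour, and without CP2 replicate 1 it was called lower in CP2 than in CP1 (-0.68, adjusted p = 0.0147). Ltbp2 read 409, 124 and 159 CPM in P1, 86.0, 38.6 and 47.0 CPM in CP1 and 110, 153, 120 and 212 CPM in CP2, lower in CP1 by -2.01 ± 0.48 (adjusted p = 0.00641). P1 replicate 1 was again high, and without it the fall was -1.32. The rise from CP1 to CP2 of 1.38 ± 0.45 (adjusted p = 0.0312) was lost without CP1 replicate 2 or 3 or CP2 replicate 2 or 4 (adjusted p = 0.0597 to 0.107).

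The calls were recomputed without CP1 replicates 2 and 3, and again without P1 replicates 1 and 2. These tumours had the largest urothelial and the largest seminal vesicle sums, respectively. P1 replicate 3, kept in both, still held 20538 CPM of seminal vesicle and secretory prostate transcripts, and its urothelial sum was 388 CPM. With CP1 replicates 2 and 3 left out, a lone CP1 tumour stands for its line and is assumed to vary like the others, so a call can be lost with its fold unmoved. Lost calls of CP1 against P1 with a smaller fold were those of Bmpr1b (-1.86, adjusted p = 0.0964), Ltbp2 (-1.42, adjusted p = 0.158), Fstl3 (1.05, adjusted p = 0.0710), Smad6 (0.29, adjusted p = 0.417) and Bmp3. Fst (0.97), Tgfb2 (0.66), Acvrl1 (-0.68), Acvr2a (-0.70) and Smad1 (-0.29) lost theirs with folds near or above those over all tumours (adjusted p = 0.0968 to 0.238). Between CP2 and CP1 the lost calls of Acvr1b (-0.43, adjusted p = 0.131), Chrd (-0.48, adjusted p = 0.265), Gdf15 (-0.78, adjusted p = 0.229), Ltbp2 (0.79, adjusted p = 0.417), Tgfbr3 and Bmp3 had smaller folds. Those of Eng (-1.01), Fst (-0.98), Smad5 (0.47) and Smad9 (3.47) had folds near or above those over all tumours (adjusted p = 0.0526 to 0.125). Lower values in CP1 than in P1 were then called for Bambi (-1.04, adjusted p = 0.0219), Chrd (-1.47, adjusted p = 0.0101) and Inha (-1.66, adjusted p = 0.0249).

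With P1 replicates 1 and 2 left out, Chrdl1 (-1.31, adjusted p = 0.244) and Gdf10 (-0.55, adjusted p = 0.490) were no longer called in CP2 against P1 and had smaller folds, while Tgfbr3 (1.14, adjusted p = 0.116) and Inha (1.54, adjusted p = 0.0980) lost their calls at folds no smaller than before. Tgfbr3 lost its call between the CP lines as well (-0.90, adjusted p = 0.0563). In CP1 the lost calls of Bmpr1b (-1.48, adjusted p = 0.0544), Tgfb1 (0.31, adjusted p = 0.308), Acvr2a (-0.14, adjusted p = 0.660) and Acvrl1 (-0.40, adjusted p = 0.354) had smaller folds. Those of Smad1 (-0.24, adjusted p = 0.131), Smad6 (0.53, adjusted p = 0.0797) and Bmp3 (6.34, adjusted p = 0.0978) stood near or above the folds over all tumours. Inhba then stood further from P1, at 4.39 in CP1 and 4.44 in CP2, and Bmp6 was higher by 3.41 in CP1. Calls gained in CP1 against P1 were those of Bmpr2 (0.77), Smad5 (0.34) and Smad7 (0.31). In CP2 against P1 they were those of Bmp6 (1.59), Bmpr1a (0.56) and Smad9 (2.32), and in CP2 against CP1 that of Bmpr1a (0.42). A lone P1 tumour stands for its line in this alternative. Bmp2, Bmp5, Gdf11, Gdf15, Id3, Grem1 and Ltbp1 kept their rises in both CP lines under every alternative tried, Nog and Bambi theirs in CP2, and Id1 and Id2 their lower values in CP1.

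Other genes of the pathway were read from lists chosen by name. Of 15 further ligands 7 could be tested, with 0 higher and 3 lower in CP1 and 1 higher and 3 lower in CP2 against P1. The shares called, 42.9% and 57.1%, stood near the 44.8% and 56.7% of all genes. Lefty1, an inhibitor of nodal signalling, averaged 10.1 ± 3.38 CPM in P1, 0.125 ± 0.107 in CP1 and 0.189 ± 0.255 in CP2. Bmp15, an oocyte ligand, was the one that was higher, at 5.54 ± 1.81 CPM in CP2 beside 0.881 ± 0.352 in P1. Of 6 further receptors tested, the co-receptor Rgmb was higher in CP2 than in P1 (60.5 ± 6.43 against 25.3 ± 5.44 CPM) and Rgma lower in both CP lines.

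Of 12 further secreted antagonists tested, 4 were higher and 2 lower in CP1, 5 higher and 3 lower in CP2, and in CP2 against CP1 3 were higher and 5 lower. These are 50%, 66.7% and 66.7% called, beside 44.8%, 56.7% and 43.2% of all genes. Tsku averaged 19.5 ± 3.87 CPM in P1 and rose to 83.2 ± 7.27 in CP1, and Fstl1 rose from 355 ± 151 CPM in P1 to 1378 ± 218 in CP2. Crim1 fell to 27.6 ± 4.68 CPM in CP2 from 104 ± 14.7 in P1.

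Genes of TGF-beta latency and activation include integrin subunits. Itgb8, whose integrin frees TGF-beta from its latent complex, averaged 6.00 ± 2.5 CPM in P1, 66.2 ± 21.3 in CP1 and 1.58 ± 0.534 in CP2, and Itgb6, with the same function in epithelia, 24.8 ± 3.31, 2.84 ± 1.55 and 0.558 ± 0.311 CPM. Of the 13 genes of that list, 5 were higher and 1 lower in CP1, 4 higher and 5 lower in CP2, and 1 higher and 6 lower in CP2 against CP1, or 46.2%, 69.2% and 53.8% called beside 44.8%, 56.7% and 43.2% of all genes. Of 16 intracellular regulators, 4 were higher and 5 lower in CP1 and 4 higher and 4 lower in CP2, or 56.3% and 50% called. They include Smurf2, a ubiquitin ligase that targets receptors and Smads, which rose to 212 ± 10.8 CPM in CP2 from 78.5 ± 21.1 in P1, and Nedd4l, another such ligase, which fell from 78.9 ± 5.20 CPM to 30.6 ± 3.78 in CP1 and 22.6 ± 1.84 in CP2.

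Listed BMP targets outside the set were mostly higher in the CP lines. Of 13 genes, 7 were higher and 2 lower in CP1 (median log2 0.63), 8 higher and 2 lower in CP2 (median 1.67) and 5 higher and 1 lower in CP2 against CP1 (median 0.72), beside medians of -0.01, 0.00 and -0.01 over all genes. The shares called were 69.2%, 76.9% and 46.2%, beside 44.8%, 56.7% and 43.2%. The homeobox gene Dlx3 stood at 0.379 ± 0.230 CPM in P1, 17.6 ± 2.19 in CP1 and 49.3 ± 5.30 in CP2, and Msx2, another homeobox gene, averaged 1.37, 17.2 and 77.4 CPM. Sp7, the osteoblast factor osterix, rose from 0.668 ± 0.533 CPM in CP1 to 7.87 ± 1.19 in CP2. Msx1, the 1 gene of the list called lower in CP2 than in CP1, averaged 9.22 ± 1.07 and 16.6 ± 2.67 CPM there. Hey1, which is also a Notch target, fell from 23.2 ± 3.61 CPM in P1 to 9.28 ± 5.42 and 6.84 ± 1.74, and Hamp, Gata2 and Tal1 were called in no comparison. Msx2 was named after its values were seen.

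Listed TGF-beta targets divided by line. Of 19 genes, 9 were higher and 1 lower in CP1 against P1 (median log2 0.72), 8 higher and 9 lower in CP2 against P1 (median -0.32), and 2 higher and 12 lower in CP2 against CP1 (median -1.11). The shares called were 52.6%, 89.5% and 73.7%, beside 44.8%, 56.7% and 43.2% of all genes. Snai1, a repressor of epithelial genes, rose to 81.5 ± 17.3 CPM in CP1 from 11.8 ± 5.03 in P1, while its relative Snai2 rose from 2.51 ± 0.494 CPM in P1 to 31.6 ± 2.45 in CP2. Ccn2, a matricellular protein, fell from 723 ± 95.2 CPM in P1 to 55.7 ± 32.4 in CP2, and the cell cycle inhibitor Cdkn2b from 54.1 ± 10.5 CPM in P1 to 6.32 ± 2.56 in CP1. Tagln, a contractile gene, stood at 545 ± 384 CPM in CP1 and 66.7 ± 34.8 in CP2.

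Smooth muscle markers moved beside these targets, and Acta2 and Tagln are in both lists. Of 9 such markers 8 were lower and 1 (Synpo2) higher in CP2 than in P1. In CP2 against CP1 8 were lower, and in CP1 against P1 0 were called. The shares called were 100%, 88.9% and 0%, beside 56.7%, 43.2% and 44.8% of all genes. The marker sum was 1080 to 3146 CPM in P1, 628, 3303 and 5049 CPM in CP1 and 339 to 598 CPM in CP2. None of the markers was at 0 throughout a line. What part smooth muscle cells have in the TGF-beta target values was not tested. Col1a1, Col1a2, Col3a1 and Postn of the target list are fibroblast markers as well.

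**Figure D4:**
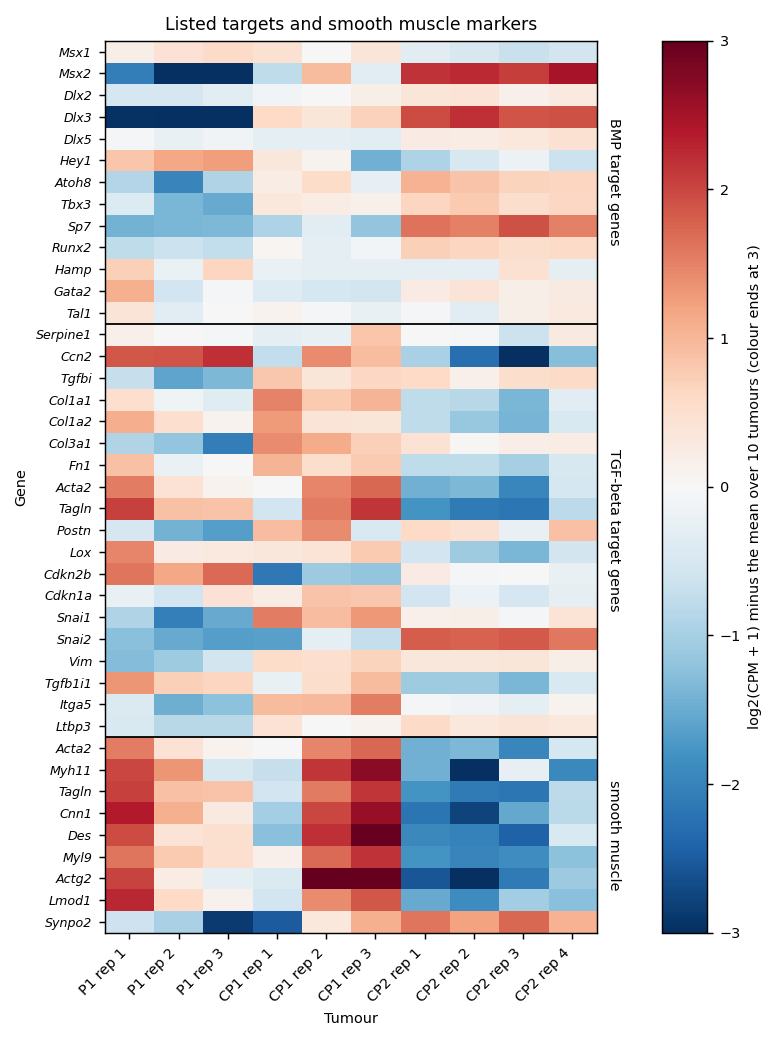
Log2(CPM + 1) minus the mean over the 10 tumours (colour, ending at 3 in either direction) for listed BMP targets, listed TGF-beta targets and smooth muscle markers (y axis) in each tumour (x axis). Msx2, Dlx3 and Sp7 are high in all 4 CP2 tumours, Snai1 and Itga5 in the 3 CP1 tumours, and Ccn2, Acta2 and Tagln share their low CP2 values with the smooth muscle markers.

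**Figure D5:**
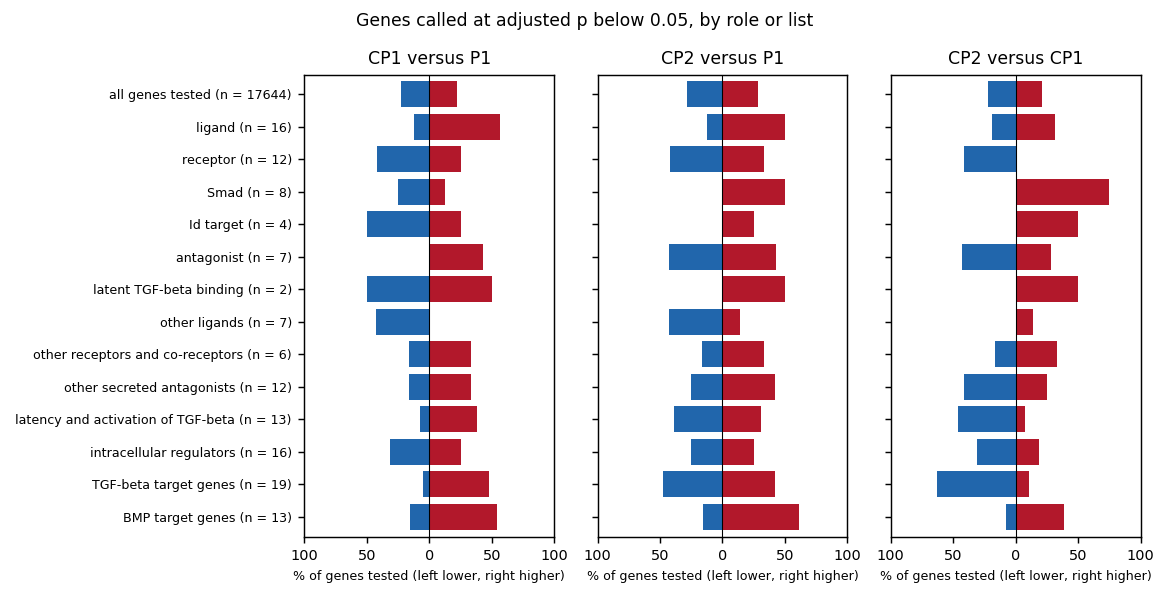
Percent of tested genes called higher (to the right) or lower (to the left) at an adjusted p below 0.05 (x axis) for each role of the set and each further pathway list (y axis, n is the number tested), with all 17644 genes in the top bar. Ligands reach 56.3% higher in CP1 against P1, Smads 75.0% higher in CP2 against CP1 and TGF-beta targets 63.2% lower in CP2 against CP1.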

How the data were processed

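RNA was sequenced from 10 prostate orthografts. The authors deposited 1 file per tumour of raw, whole-number read counts under Ensembl gene IDs. The submitters' processing notes name HTSeq 0.6.0, the build GRCm38.p3, Bowtie2 2.2.6.0, DESeq2 1.14.1, TopHat2 2.1.0, FastQC 0.11.4 and R 3.2.3. Annotation, order of steps and use of strand are not given in the sources used here. Genes sharing exonic bases with an antisense gene (among them Bmp4, Bmp5, Bmp6, Tgfb2, Tgfb3, Eng, Acvrl1, Acvr2a, Chrd, Fst, Fstl3, Id4 and Ltbp2) are uncertain. Symbols came from GENCODE M21 (GRCm38), which matched 46574 of 47069 gene IDs, among them all 50 genes of the set. 3 listed pathway symbols had no match (Gdf1, Hjv and Ctgf), the last 2 of which were read under their other symbols Hfe2 and Ccn2.

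Counts were fitted with edgeR 4.0.16 (R 4.3.3, limma 3.58.1) by a robust quasi-likelihood model with a mean per line over all 10 tumours, after filterByExpr (minimum count 10, minimum total 15) and TMM scaling. P-values were Benjamini-Hochberg adjusted over all 17644 genes tested and called below 0.05. SEs were taken as log2 fold change over the root of the F statistic. CPM are on TMM-scaled library sizes, as mean ± SD. Levels of different genes were compared per kilobase of merged exon, and again of the longest transcript. The fit was tested on simulated counts. Alternatives were RLE factors, scaling without seminal vesicle genes, DESeq2 1.42.0, no filter, only the lines compared, each tumour left out, both tumour pairs left out, and, chosen after seeing the data, a block on title numbers. No 2 libraries of the same line agreed within sampling noise, and libraries of different lines were not compared in this way.

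The genes of the set, the pathway and marker lists and the tests were chosen with earlier results of these data known. Named are all 50 genes of the set. Of the called genes with the largest rise or fall per pathway list and comparison, at a mean of at least 5 CPM, some are named. Msx2 and the marker genes were chosen after their values were seen. Part of the genotypes and some marker genes are not reported here.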

Additional observations from a re-analysis of the deposited data

Results flagged for a closer look

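In the CP2 group, the only one of 4 tumours, 48 genes of the set were screened for a tumour far from its fellows, and 4 had one. Chance alone gives about 1 in 20. Inhbb stood at 57.6 CPM in CP2 replicate 3, beside 105 to 113 CPM in the other CP2 tumours. Tgfb1 stood at 198 CPM in CP2 replicate 2, beside 176 to 180 CPM. Tgfb2 stood at 188 CPM in CP2 replicate 1, beside 162 to 166 CPM. Acvrl1 stood at 18.5 CPM in CP2 replicate 4, beside 10.1 to 11.3 CPM, in the tumour that also had the highest Eng level of CP2, 56.1 CPM. These were 4 different tumours.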

How the results depend on the processing

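Of the calls made in the set, 19 of 30 in CP1 versus P1, 26 of 31 in CP2 versus P1 and 16 of 27 in CP2 versus CP1 were kept in all 17 alternatives chosen at the outset. Leaving out each tumour in turn gave 14 to 19 genes higher and 9 to 14 lower in CP1 versus P1, 19 to 22 and 9 to 11 in CP2 versus P1, and 14 to 17 and 9 to 12 in CP2 versus CP1. Over all genes it gave 6892 to 8033, 8960 to 10208 and 6284 to 8705 calls. With CP1 replicates 2 and 3 left out, 4 genes of the set in place of 11 were lower in CP2 than in CP1 and 4177 of all genes in place of 7620 were called there. This alternative has fewer samples. The Bmp7 difference between CP1 and P1 reversed under it, to -1.15. Neither RLE factors nor scaling without seminal vesicle genes changed a call in the set other than that of Bmpr2 in CP2. With only the compared lines in the fit, calls were lost in CP1 versus P1 for Acvr2a, Smad1, Smad6, Tgfb1 and Tgfb2 and in CP2 versus P1 for Bmpr2. Without a filter on low counts they were lost for Smad1 and Smad6 in CP1 versus P1, Bmpr2 and Tgfbr3 in CP2 versus P1, and Ltbp2 and Tgfbr3 in CP2 versus CP1. The titles of 2 P1 tumours (replicates 1 and 3) and 2 CP2 tumours (replicates 3 and 4) share the running numbers 19 and 21, and nothing in the labels says what a number marks. Deviations from the line means over the 5000 most abundant genes correlated at -0.21 and -0.07 for the same-numbered tumours and at -0.26 to 0.25 for the other pairs of P1 and CP2 tumours, so the numbers were not taken as pairs. A block on these numbers, chosen after seeing the data, gave 20 genes of the set higher and 11 lower in CP2 versus P1, with Tgfbr3 lost (0.79, adjusted p = 0.0620) and Acvr2a gained (-0.44, adjusted p = 0.0381), and 9537 calls over all genes in place of 9997. The lower depth of CP2 limits rare genes such as Gdf5 and Bmp3.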

Other observations

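Markers of immune cells of the host, which the set does not describe, were called in unlike numbers. Of 10 macrophage markers, among them Csf1r, Adgre1 and the complement C1q genes, 1 (Cd14) was lower and 0 higher in either CP line against P1. That is 10% called in each, beside 44.8% and 56.7% of all genes. Of 9 lymphocyte and NK cell markers tested, 0 were higher and 6 lower in CP1 than in P1. In CP2, 2 (Prf1 and Gzmb) were higher and 3 lower than in P1, and 5 were higher and 0 lower than in CP1. The shares called were 66.7%, 55.6% and 55.6% in these 3 comparisons, beside 44.8%, 56.7% and 43.2% of all genes. Perforin (Prf1) averaged 9.61 CPM in P1, 1.16 CPM in CP1 and 176 CPM in CP2, and granzyme B (Gzmb) 19.1, 0.801 and 90.2 CPM. Prf1 and Gzmb were called in all 3 comparisons, lower in CP1 and higher in CP2. Levels of Tgfb2, Bambi and Nog were highest in the same 4 CP2 tumours, and whether these differences are linked was not tested.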
